A study of Arabidopsis thaliana with 27 samples.

Results

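The genes described here had higher mean levels in ozone than in clean air after 3 h of exposure and stayed below a set limit of difference after 2 d, in both genotypes of the study. Of 22746 probe sets on the array, 268 met this rule, and they are called members. The rule took L as log2(intensity + 1) and D as the mean L in ozone minus the mean L in clean air. Members were chosen by these measured values: a member had a D of 1 or more at 3 h in both genotypes, a D under 0.5 at 2 d in both, and a highest group mean of 6 or more. Probe sets with symbols beginning WRKY, UGT or CYP and a short list of single genes were left out, which removed 5 probe sets that had passed. Among the members, 127 probe sets named 1 gene, representing 126 genes, while 5 named several genes and 136 had no gene name in the annotation used.

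The RNA came from mid-whorl leaves of Arabidopsis thaliana, a small flowering plant, and was measured on 27 Affymetrix ATH1 arrays. Each probe set on this platform reads the transcript of 1 gene or of a few related genes. The plants were 4 to 5 weeks old and were either gpa1-4/agb1-2, a null mutant of the G protein here called the mutant, or Columbia wild type. They spent 7 h per day in ozone at 125 ppb or in clean air at 5 ppb. Sampling followed 3 h or 2 d of exposure. At 3 h there were 3 arrays of the mutant in ozone, 3 of the mutant in clean air, 3 of wild type in ozone and 3 of wild type in clean air. At 2 d there were 4 arrays of the mutant in ozone, 3 of the mutant in clean air, 4 of wild type in ozone and 4 of wild type in clean air. Replicates are labelled biological, how many plants went into each is not stated, and p-values measure the spread between these arrays. The mutant was available as 1 line, and probe sets for GPA1 and AGB1 were not among the named ones, so their transcripts were not analysed here. Arrays could not be tied to the 4 exposure chambers from the labels.

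Ozone enters the leaf through stomata and breaks down in the cell wall space into reactive oxygen species. Plant cells are known to answer within minutes to hours with calcium influx, kinase signalling and a burst of transcripts shared with wounding and with the perception of microbes. Many such early transcripts are short-lived, and receptor kinases, ubiquitin ligases and calcium pumps are typical of them. The heterotrimeric G protein, whose alpha and beta subunits are encoded by GPA1 and AGB1, couples cell-surface signals to responses inside the cell.

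The arrays carried leaf RNA by the markers that could be measured. RCA (rubisco activase) lay between 13.85 and 15.01 on the log2 scale over all arrays, LHCB4.1 (a light-harvesting protein) between 13.77 and 14.86, and PSAN (a photosystem I subunit) between 12.28 and 14.22. The other 7 of the 10 mesophyll markers listed had no named probe set. FAMA, a guard cell factor, lay between 6.75 and 8.14, and the root hair gene EXPA7 between 2.81 and 6.55. In wild type at 3 h EXPA7 stood at 6.55, 5.69 and 5.82 in ozone, against 5.04, 5.41 and 3.46 in clean air, with no overlap. In the mutant at 3 h it stood at 5.34, 5.07 and 3.35 in ozone, against 2.94, 5.73 and 4.47 in clean air. PSAN had a lower mean in ozone at 2 d, at 12.59 in the ozone-exposed mutant against 13.38 in clean air, and at 12.62 in ozone-exposed wild type against 13.39 in clean air. The part of these differences in the results for the members was not tested. None of the phloem, trichome, flower or seed markers was measured. The median of all probe sets lay between 7.27 and 7.52 on every array.

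The members as a whole were high in ozone at 3 h on every array. Their median level per array was 8.92, 9.74 and 8.92 in the ozone-exposed mutant at 3 h, against 7.64, 7.84 and 7.43 in the mutant in clean air. It was 9.33, 9.62 and 8.84 in ozone-exposed wild type, against 7.55, 7.59 and 7.5 in wild type in clean air. The ozone arrays and the clean-air arrays did not overlap at 3 h in either genotype, a separation that the rule itself required of the group means. At 2 d the median was 8.22, 8.19, 8.77 and 8.39 in the ozone-exposed mutant, against 8.10, 8.65 and 9.02 in clean air. In wild type at 2 d it was 8.17, 8.14, 8.84 and 9.01 in ozone, against 8.09, 8.57, 8.77 and 8.58 in clean air. The groups overlapped at 2 d in both genotypes. In bulk leaf RNA, a change in the number of cells of a type and a change in RNA per cell cannot be told apart.

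**Figure D1:**
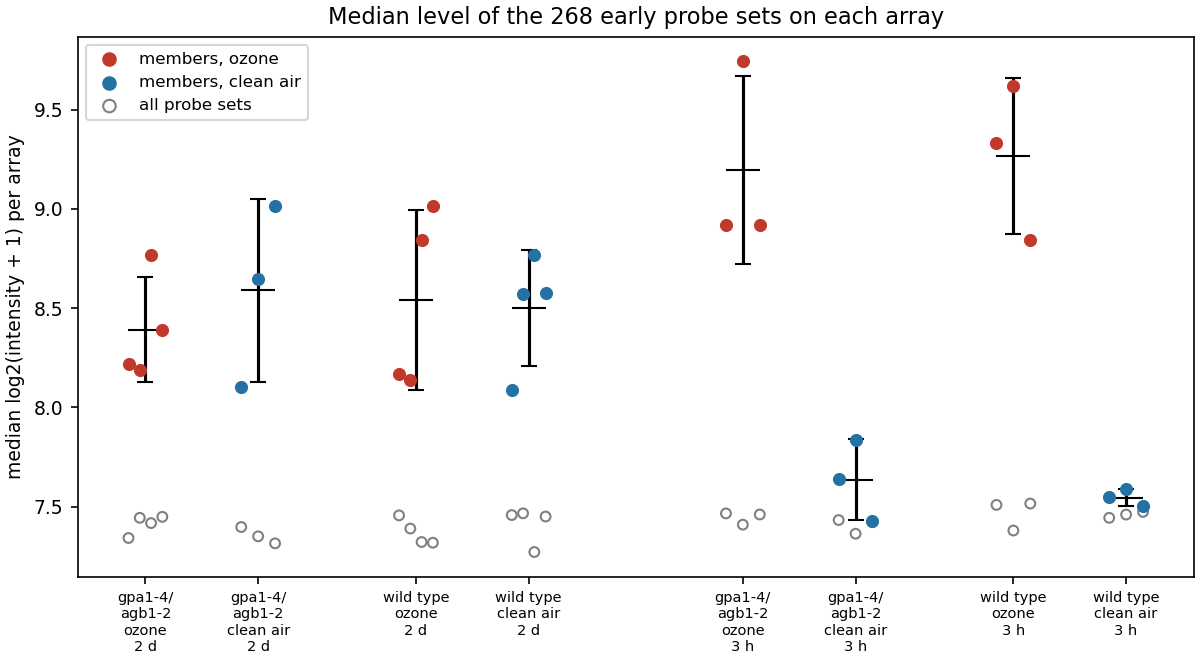
Median level of the 268 members (filled points) and of all probe sets (open points) on each array, on the log2(intensity + 1) scale, with the mean and SD of each group of 3 or 4 arrays as black bars. At 2 d the members' medians in both airs lie between 8.09 and 9.02, while at 3 h the ozone arrays lie between 8.84 and 9.74 and the clean-air arrays between 7.43 and 7.84.

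The change in ozone at 3 h had a median of 1.47 over the members in the mutant and 1.60 in wild type, on the log2 scale. The medians over all 22746 probe sets were -0.04 in the mutant and -0.01 in wild type. Single changes ran between 1.01 and 5.31 in the mutant and between 1.0 and 5.91 in wild type. In both genotypes at once, 40 members had a change of 2 or more and 9 had a change of 3 or more, while 192 lay under 2 in both. The median standard error of a member's change was 0.445 at 3 h. These contrasts chose the members, so the values are a description.

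Ozone and clean-air arrays at 3 h did not overlap for 233 members in the mutant, which is 86.9% of the members and compares with 8.83% of all probe sets. In wild type this held for 241 members, or 89.9%, with 9.43% of all probe sets. It held in both genotypes for 212 members, or 79.1%, with 3.73% of all probe sets. In the limma fit, with Benjamini-Hochberg adjustment over all probe sets and an adjusted p threshold of 0.05, 46 members were called higher in the mutant (17.2% of members, 0.615% of all probe sets). In wild type 109 were called (40.7% of members, 1.2% of all probe sets), and in both genotypes 40 (14.9% of members, 0.422% of all probe sets). Since the rule used the same contrasts, nothing is read from these shares. The counts depended on the fit. The share of all probe sets called in these other fits is not given here, so nothing is read from the shifts. With a replicate block 135 members were called in the mutant, where same-numbered ozone and clean-air arrays at 3 h deviated together, and 178 in wild type, where they did not do so in every pair. With array weights the counts were 169 in the mutant and 232 in wild type, and with separate fits per time they were 27 in the mutant and 64 in wild type. With dim probe sets filtered out the mutant count was 86. The counts were 3 to 72 in the mutant and 23 to 174 in wild type when single arrays were left out. The mutant count dropped to 3 without mutant ozone replicate 2 or without mutant clean-air replicate 3, and to 8 without mutant clean-air replicate 1, and was 72 without wild-type ozone replicate 3. The wild-type count was 23 and 25 without wild-type ozone replicates 1 and 2, and 24 without wild-type clean-air replicate 3. It was 53 and 57 without wild-type clean-air replicates 1 and 2, and 174 without wild-type ozone replicate 3.

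Among the named genes, the member with the largest mean change at 3 h was AT1G52200, which encodes a PLAC8-family protein. Its level at 3 h was 11.68, 12.61 and 10.63 in the ozone-exposed mutant, against 8.22, 9.09 and 7.65 in the mutant in clean air. In wild type it was 12.46, 12.52 and 10.90 in ozone, against 9.29, 7.74 and 8.29 in clean air. All 6 ozone arrays stood above all 6 clean-air arrays, and the change was 3.32 ± 0.678 in the mutant and 3.52 ± 0.678 in wild type (SE). AT3G54150, of a methyltransferase family, showed the same order. It read 9.05, 10.66 and 9.32 in the ozone-exposed mutant against 6.50, 6.78 and 5.79 in clean air, and 9.65, 10.11 and 8.56 in ozone-exposed wild type against 6.81, 6.51 and 6.17 in clean air. Its change was 3.32 ± 0.579 in the mutant and 2.94 ± 0.579 in wild type.

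AT3G23550, a carrier of the MATE family of efflux proteins, was less even between arrays. The ozone-exposed mutant gave 8.88, 9.67 and 11.91 at 3 h, against 7.55, 7.62 and 7.21 in clean air. Wild type gave 10.06, 11.07 and 11.03 in ozone, against 6.89, 7.78 and 6.88 in clean air. The groups did not overlap, and replicate 3 of the ozone-exposed mutant lay more than 2 log2 units above the other two. CXE20 encodes a carboxylesterase, an enzyme that cleaves esters. It stood at 7.60, 9.12 and 6.18 in the ozone-exposed mutant against 4.43, 4.80 and 4.66 in clean air, and at 8.42, 8.68 and 5.29 in ozone-exposed wild type against 4.26, 4.78 and 3.83 in clean air. Replicate 3 was the lowest ozone array in both genotypes, and the change was 3.00 ± 1.0 in the mutant and 3.17 ± 1.0 in wild type.

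AT2G22880 encodes a VQ-motif protein, a family that binds WRKY factors. It was dim at 3 h, with 5.49, 5.64 and 6.49 in the ozone-exposed mutant against 2.07, 2.00 and 2.04 in clean air. Wild type read 6.61, 5.02 and 4.55 in ozone against 3.02, 3.23 and 3.32 in clean air. The change of 3.84 ± 1.65 in the mutant and 2.20 ± 1.65 in wild type carried the widest error of any member, since its arrays at 2 d were scattered between 3.10 and 10.95. On the scale with a pseudocount of 16 in place of 1 the changes were 1.96 in the mutant and 1.29 in wild type.

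Other genes among the 10 with the largest mean change included AT4G37290, the precursor of a secreted peptide. It had 8.33, 9.12 and 8.30 in the ozone-exposed mutant against 5.93, 6.46 and 3.63 in clean air, and 8.39, 8.46 and 8.57 in ozone-exposed wild type against 7.00, 5.17 and 5.97 in clean air. Its ozone arrays were close together and its clean-air arrays were not. AT1G22890 gave 9.01, 10.25 and 9.37 in the ozone-exposed mutant against 6.80, 7.55 and 6.86 in clean air, and 9.94, 10.17 and 9.45 in ozone-exposed wild type against 7.38, 6.40 and 7.30 in clean air. No group overlapped, and the change was 2.48 ± 0.493 in the mutant and 2.82 ± 0.493 in wild type. AT4G19370 had a change of 3.46 ± 0.553 in the mutant and 2.46 ± 0.553 in wild type, and its levels are given with the genotypes.

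**Figure D2:**
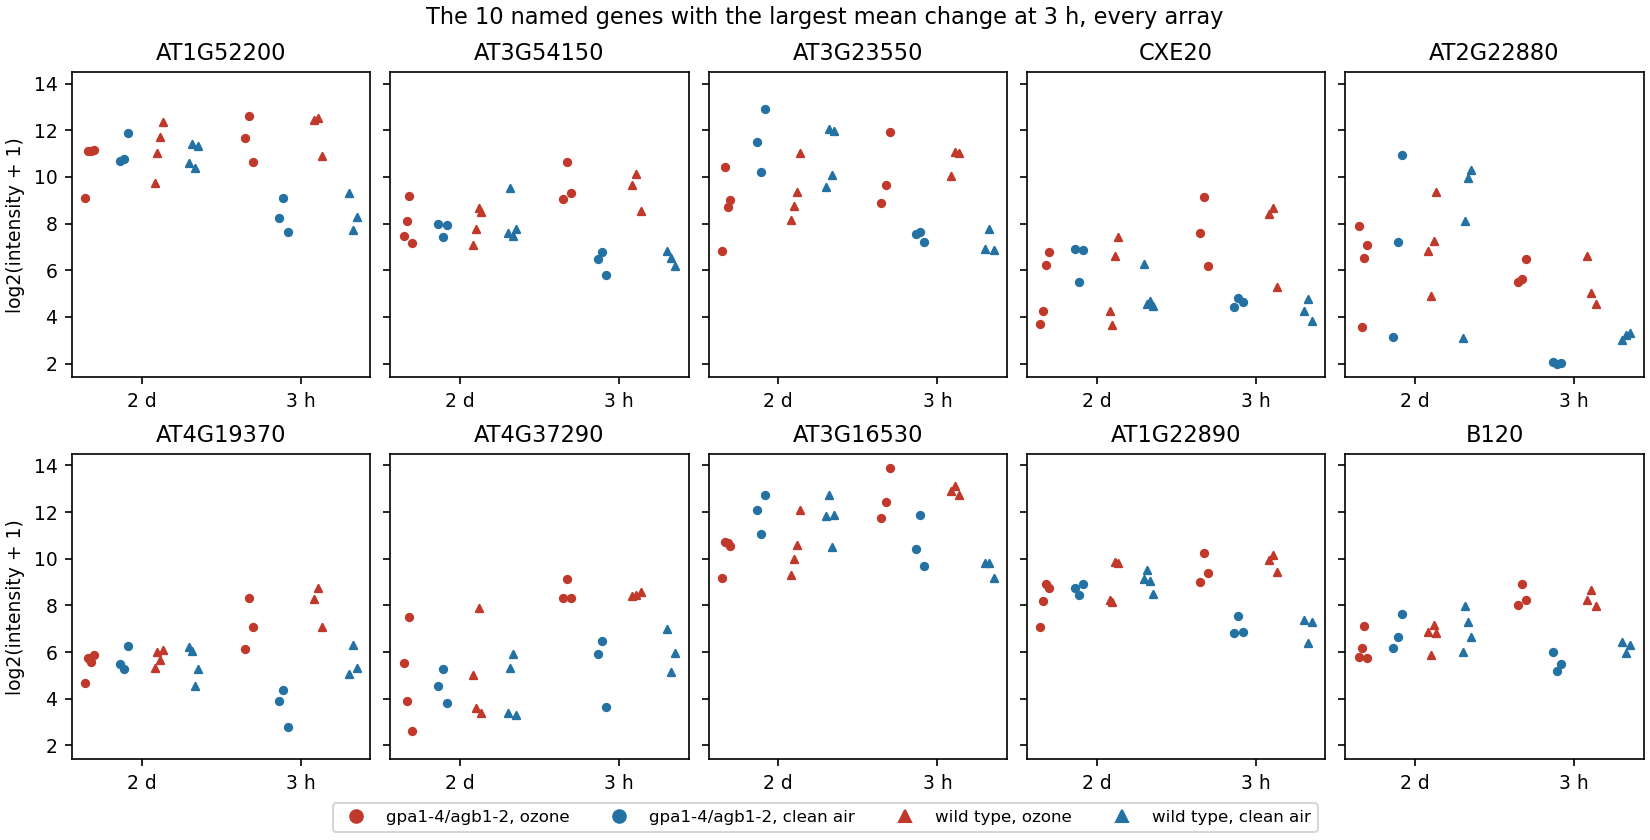
Level of the 10 named genes with the largest mean change at 3 h on every array, on the log2(intensity + 1) scale, with 2 d on the left and 3 h on the right of each panel. Circles are gpa1-4/agb1-2 and triangles wild type, red is ozone and blue clean air. Within each genotype at 3 h the red points stand above the blue ones in every panel except AT3G16530, where in the mutant 1 clean-air array at 11.89 lies above 1 ozone array at 11.76.

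The members with the largest changes of all had no gene name. Probe set 247573_at had a level of 6.91, 7.32 and 8.73 in the ozone-exposed mutant at 3 h, against 2.83, 2.00 and 2.20 in clean air. In wild type it had 6.54, 8.70 and 9.21 in ozone, against 1.68, 2.17 and 2.87 in clean air. It was near the bottom of the scale in clean air, and its change was 5.31 ± 0.894 in the mutant and 5.91 ± 0.894 in wild type. With a pseudocount of 16 the changes were 3.43 in the mutant and 3.94 in wild type. Probe sets 266010_at, 261450_s_at, 261449_at and 247949_at followed, with changes between 3.72 and 4.63 in the mutant and between 4.29 and 5.17 in wild type. The last letters of 261450_s_at mark a probe set that matches more than 1 transcript, and 14 members carried such a suffix or the related one for mixed probes.

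A role could be given to 65 of the 126 named genes from their family, and these fell into 8 groups that were made after the members were known. Genes named below beyond the largest changes and the fixed lists were chosen after their values were seen. For each group, the changes at 3 h are above 1 by the rule, so the groups differ only in how far above.

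Transport, detoxification and metabolism was the group with the highest median, 1.85 in the mutant and 2.23 in wild type over 13 genes. Besides the carrier AT3G23550 and CXE20, it held AT4G20830, a berberine-bridge-like oxidase with a change of 2.81 ± 0.576 in the mutant and 1.91 ± 0.576 in wild type. It also held 3 hydrolases of the alpha/beta fold, of which AT2G39400 had 1.92 ± 0.450 in the mutant and 2.41 ± 0.450 in wild type. AT3G09020, a glycosyltransferase, had 1.80 ± 0.487 in the mutant and 2.23 ± 0.487 in wild type.

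Cell-surface receptors and kinases numbered 13 genes on 14 probe sets, with a median change of 1.34 in the mutant and 1.47 in wild type. B120, a receptor kinase with an S-locus lectin domain, read 8.0, 8.93 and 8.22 in the ozone-exposed mutant against 6.02, 5.19 and 5.50 in clean air. In wild type it read 8.23, 8.67 and 7.98 in ozone against 6.41, 5.98 and 6.32 in clean air. The groups were well apart, with a change of 2.81 ± 0.463 in the mutant and 2.06 ± 0.463 in wild type. AT1G61360, of the same lectin class, had 8.69, 9.77 and 8.80 in the ozone-exposed mutant against 7.94, 7.22 and 7.47 in clean air, and 9.61, 9.60 and 9.24 in ozone-exposed wild type against 7.39, 7.74 and 7.32 in clean air. The leucine-rich repeat kinases AT1G51790 and AT1G56145 had changes of 1.5 ± 0.341 and 1.16 ± 0.263 in the mutant, and of 1.64 ± 0.341 and 1.44 ± 0.263 in wild type. AT2G23450, which resembles the wall-associated kinases, had 1.1 ± 0.312 in the mutant and 1.51 ± 0.312 in wild type. The receptor-like cytoplasmic kinases AT3G09830, AT5G03320 and AT5G25440 lay between 1.04 and 1.32 in the mutant and between 1.27 and 1.88 in wild type. AT1G18390, a kinase of the LRK10-like family, was read by both of its probe sets, at 1.57 ± 0.385 and 1.75 ± 0.375 in the mutant and at 1.68 ± 0.385 and 1.41 ± 0.375 in wild type.

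Calcium and lipid signals held 6 genes, with a median of 1.37 in the mutant and 1.85 in wild type. ACA.l has the symbol of an autoinhibited calcium ATPase, and what its product transports was not examined. It gave 9.90, 10.89 and 10.25 in the ozone-exposed mutant against 9.04, 9.22 and 8.99 in clean air. Wild type gave 10.75, 10.81 and 10.37 in ozone against 8.82, 8.92 and 8.62 in clean air. Its clean-air arrays were close together in each genotype, while those of the ozone-exposed mutant ran from 9.90 to 10.89. The change was 1.26 ± 0.241 in the mutant and 1.86 ± 0.241 in wild type. The EF-hand protein AT1G18210, a calcium binder, had 1.47 ± 0.488 in the mutant and 1.85 ± 0.488 in wild type. AT4G34150 and AT1G03370 carry C2 domains, which bind membranes, and had changes of 1.74 ± 0.459 and 1.11 ± 0.348 in the mutant and of 1.75 ± 0.459 and 1.62 ± 0.348 in wild type. AT5G47730, a lipid transfer protein like Sec14, had 1.70 ± 0.567 in the mutant and 2.04 ± 0.567 in wild type.

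Ubiquitin ligases, which mark proteins for breakdown, numbered 6 genes with a median of 1.32 in the mutant and 1.52 in wild type. PUB23, a U-box ligase known as a brake on immune signalling, had 6.36, 7.07 and 7.63 in the ozone-exposed mutant against 5.94, 5.08 and 6.73 in clean air. In wild type it had 7.89, 8.50 and 6.90 in ozone against 6.42, 5.17 and 6.49 in clean air. The arrays overlapped in the mutant and were apart in wild type. ATCRT1, a RING protein, read 9.21, 10.85 and 8.76 in the ozone-exposed mutant against 8.32, 8.63 and 8.80 in clean air, and 9.36, 9.74 and 9.07 in ozone-exposed wild type against 8.13, 8.02 and 7.71 in clean air. Its change in the mutant of 1.03 ± 0.384 was just inside the rule and was 0.41 without mutant ozone replicate 2. AT5G61560, which joins a U-box to a kinase domain, had 1.61 ± 0.426 in the mutant and 1.79 ± 0.426 in wild type.

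Wall and secreted proteins were 9 genes with a median of 1.57 in the mutant and 1.17 in wild type. AT1G02360, of a chitinase family, stood at 8.08, 8.60 and 8.07 in the ozone-exposed mutant against 5.99, 6.78 and 6.45 in clean air. Wild type stood at 9.27, 9.23 and 9.18 in ozone against 6.57, 6.93 and 6.45 in clean air. The change was 1.84 ± 0.354 in the mutant and 2.58 ± 0.354 in wild type. AT3G16530, of the legume lectin family, had 11.76, 12.44 and 13.89 in the ozone-exposed mutant against 10.41, 11.89 and 9.68 in clean air, and 12.90, 13.11 and 12.71 in ozone-exposed wild type against 9.82, 9.81 and 9.16 in clean air. It overlapped in the mutant and not in wild type. XTH18, a xyloglucan endotransglucosylase that remodels the wall, was a weak member, with 1.57 ± 1.16 in the mutant and 1.01 ± 1.16 in wild type.

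Intracellular immune receptors, proteins with a nucleotide-binding domain or a TIR domain that detect pathogen activity, were 7 genes. Their median change was 1.31 in the mutant and 1.32 in wild type. AT3G04220 read 8.44, 8.99 and 8.18 in the ozone-exposed mutant against 7.20, 7.19 and 7.12 in clean air, and 8.57, 8.89 and 7.96 in ozone-exposed wild type against 7.57, 6.88 and 7.22 in clean air. AT3G04210, its neighbour on chromosome 3 and likewise of the TIR class, had a change of 1.13 ± 0.363 in the mutant and 1.56 ± 0.363 in wild type.

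Nuclear regulators were 6 genes with a median of 1.18 in the mutant and 1.75 in wild type, with the families most often named in early stress responses removed in part by the rule. AT2G33710, an AP2/ERF factor, had 2.16 ± 0.806 in the mutant and 2.31 ± 0.806 in wild type. The GRAS proteins AT3G46600 and AT5G59450 had 1.02 ± 0.417 and 1.18 ± 0.319 in the mutant and 2.02 ± 0.417 and 1.12 ± 0.319 in wild type. AT4G17900, a PLATZ factor, had 1.12 ± 0.371 in the mutant and 1.48 ± 0.371 in wild type.

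Membrane traffic was represented by 5 genes, with a median of 1.33 in the mutant and 1.37 in wild type. AT1G76970, with the VHS and GAT domains of ubiquitin-binding sorting proteins, had 1.73 ± 0.355 in the mutant and 1.43 ± 0.355 in wild type. VPS60.1, related to the ESCRT-III complex that sorts membrane proteins into vesicles, had 1.33 ± 0.363 in the mutant and 1.59 ± 0.363 in wild type. SEC1B, of the SEC1 family that acts in vesicle fusion, had 1.49 ± 0.501 in the mutant and 1.37 ± 0.501 in wild type.

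**Figure D3:**
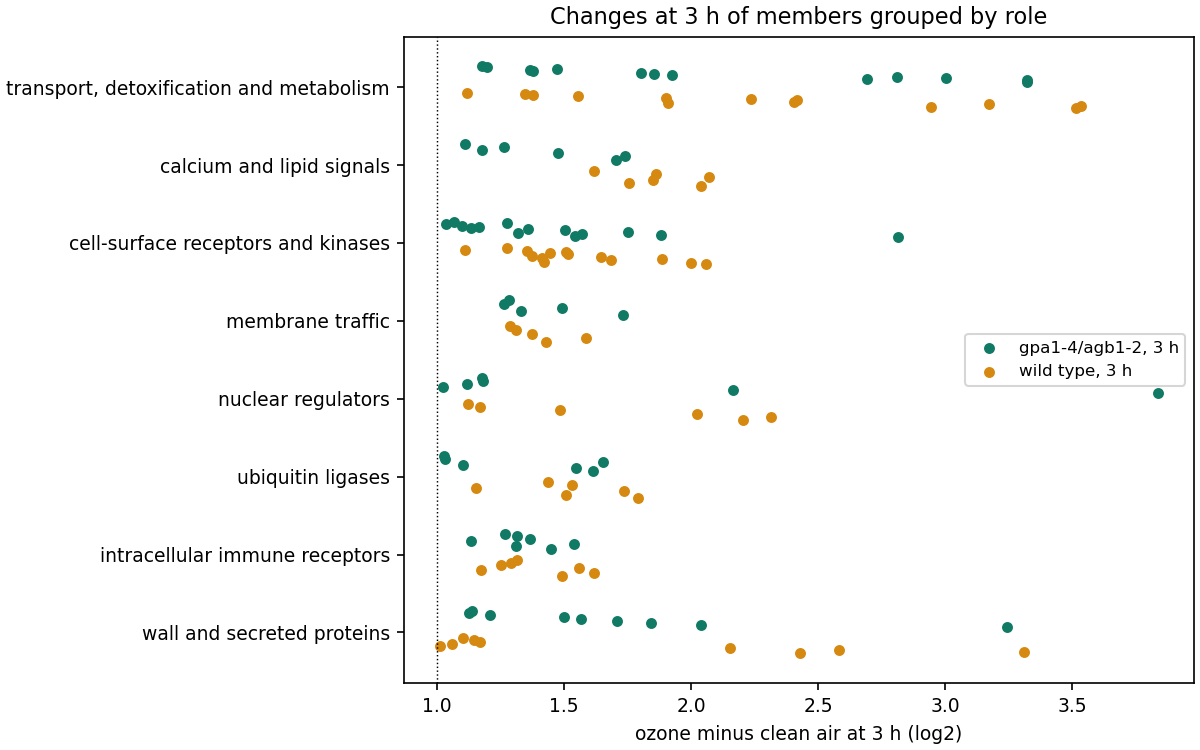
Change at 3 h, ozone minus clean air on the log2 scale, of the 65 member genes with a role, in 8 groups ordered by median. Green points are gpa1-4/agb1-2 and orange points wild type, 1 point for each probe set, and the dotted line is the threshold of 1. The highest points belong to metabolism, to AT2G22880 among the nuclear regulators and to AT4G37290 and AT3G16530 among the secreted proteins.

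Across 14 lists built from gene symbols for stress and signalling families, 3 members appeared, and the lists match gene symbols only. The calcium list of 35 measured genes held ACA.l and ATCRT1. Both were placed there by a match of the symbol and neither by its function. ATCRT1 is grouped above with the ubiquitin ligases, and what the product of ACA.l transports was not examined. Over that list the median change at 3 h was -0.10 in the mutant and -0.01 in wild type. The 1 gene called higher in the mutant was ACA.l. In wild type 2 were called, ACA.l and CML42. The rule excluded CML42 by name, and its change in the mutant, 0.89, was also under the limit. The ubiquitin ligase list of 22 measured genes held PUB23, with medians of 0.07 in the mutant and 0.27 in wild type. The 1 gene called higher in each genotype was PUB24, which the rule excluded by name, and PUB23 was called in neither. The salicylate and defence list, the redox list and the transporter list, with 54, 44 and 36 measured genes, held no member. In the heat shock list of 10 genes the excluded Hsp70-2 and Fes1A were called higher at 3 h in the mutant. Their changes at 2 d, 2.18 and 1.37 in the mutant and 1.74 and 1.23 in wild type, were also above the limit.

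Among probe sets with 1 named gene, the following lay nearest the thresholds, and some unnamed members lay nearer still. Just inside the limit at 3 h, AT5G54850 had 1.01 in the mutant, XTH18 had 1.01 in wild type and AT2G44500 had 1.02 in wild type. Just outside it, AT5G15870, AT2G07721 and AT1G77500 had between 0.99 and 1.0 in wild type. Inside the limit at 2 d lay AT4G37290 and CXE20 with 0.50 and AT3G15760 with 0.49 in wild type, and outside it lay AT5G39020 with 0.51 in the mutant and AT5G25930 and AT1G10140 with 0.52 and 0.53 in wild type.

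The size of the early change can be set side by side for the genotypes. Since the rule asked for a change of 1 or more in each, the difference is built from the values that chose the members and is given with no test. The mutant change exceeded the wild-type change for 105 members and was smaller for 163, and the difference had a median of -0.08. The median standard error of that difference for a single member was 0.629. The interaction of genotype and ozone was called for no probe set on the array at 3 h or at 2 d, which is 0% of 22746 in the limma fit. At an unadjusted p under 0.05 it took in 2.76% of all probe sets at 3 h and 2.84% at 2 d. Among the named members, singled out after their values were seen, AT1G12320 had the lowest difference, -1.32 ± 0.853, and AT2G22880 the highest, 1.63 ± 2.33.

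**Figure D4:**
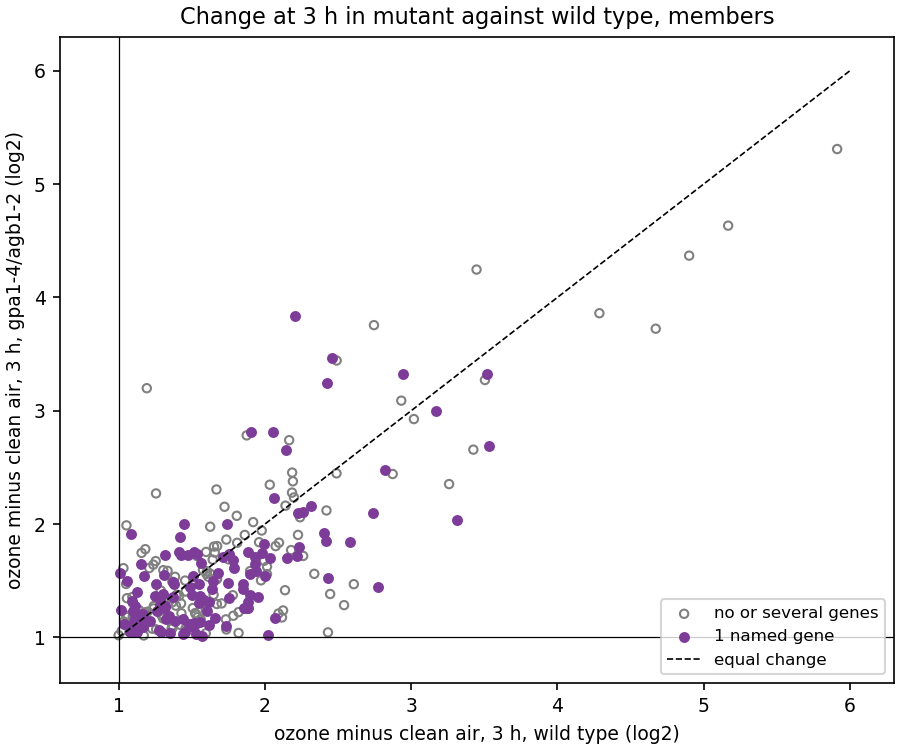
Change at 3 h, ozone minus clean air on the log2 scale, in gpa1-4/agb1-2 (vertical) and wild type (horizontal) for the 268 members. Filled points name 1 gene, open points none or several, the thin lines are the thresholds of 1 and the dashed line marks equal change. Of the points, 163 lie on the wild-type side of the dashed line and 105 on the mutant side.

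The level of each member, averaged over both airs, was compared between the genotypes. Levels entered the rule through the highest group mean of 6 or more. A dim member could pass that limit through the genotype where it was higher, so the test is not fully independent of the rule. At 3 h none of the 268 members passed in limma's test with Benjamini-Hochberg adjustment over all probe sets, of which 0.00879% were called. At an unadjusted p under 0.05, 12 members (4.48%) differed at 3 h, compared with 6.79% of all probe sets. At 2 d again none passed, with 0.0176% of all probe sets called, and 6 members (2.24%) had an unadjusted p under 0.05, compared with 3.36% of all probe sets. The difference in level, mutant minus wild type, had a median of -0.01 at 3 h, and its quartiles were -0.20 and 0.16. At 2 d its quartiles were -0.17 and 0.14. The median standard error was 0.315 at 3 h and 0.282 at 2 d.

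Among the named members AT4G19370 had the smallest p at 3 h. Its level was 6.13, 8.31 and 7.06 in the ozone-exposed mutant, against 8.26, 8.74 and 7.08 in ozone-exposed wild type. In clean air it was 3.93, 4.36 and 2.81 in the mutant, against 5.07, 6.32 and 5.31 in wild type. The mutant was the lower in clean air on every array and overlapped with wild type in ozone. The difference over both airs was -1.37 ± 0.391, with an adjusted p of 0.384 in limma's test. AT1G14200, a RING protein, averaged 9.57 in the ozone-exposed mutant against 8.72 in ozone-exposed wild type, and 8.02 in the mutant in clean air against 7.21 in wild type in clean air. Its difference was 0.83 ± 0.310, with an adjusted p of 0.593 in limma's test. With array weights, which let arrays close to their group count for more, 5 members passed at 3 h, among them AT4G19370 and AT1G14200. The share of all probe sets called with these weights is not given here, so nothing is read from that count.

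At 2 d the change was under 0.5 in both genotypes, as the rule asked. It was still above 0 for 101 members in the mutant and 149 in wild type, by up to 0.50. The median change over members was -0.15 in the mutant and 0.06 in wild type, beside -0.01 and -0.09 over all probe sets. No member was called higher in either genotype (0.154% of all probe sets in the mutant, 1.63% in wild type). None was called lower in the mutant (0.0352%), and 1 was called lower in wild type, where 1.82% of all probe sets were. At an unadjusted p under 0.05, 15 members differed in the mutant, or 5.6% (12.3% of all probe sets), and 14 in wild type, or 5.22% (20.8% of all probe sets). Arrays did not overlap and ozone was lower for 16 members in the mutant, or 5.97% (4.5% of all probe sets), and for 4 in wild type, or 1.49% (7.93% of all probe sets). Ozone was higher without overlap for 2 members in the mutant (6.26% of all probe sets) and 1 in wild type (5.34%). Below 0 in both genotypes were 106 members, or 39.6%, beside 38.8% of all probe sets. The rule removed changes of 0.5 or more in these same contrasts, so nothing is read from these shares.

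For 8 members the sign was turned, with a change of -1 or less at 2 d in both genotypes, which is 2.99% of members and 1.3% of all probe sets. Of these, 4 had a gene name, and they were singled out after their values were seen. The rule used the same contrasts, so nothing is read from the share. The carrier AT3G23550 had 6.83, 10.42, 8.69 and 9.03 in the ozone-exposed mutant at 2 d, against 11.49, 10.22 and 12.92 in clean air. In wild type it had 8.16, 8.76, 9.34 and 11.02 in ozone, against 9.56, 12.07, 10.08 and 11.97 in clean air. The arrays overlapped in both genotypes, and the change was -2.80 ± 0.845 in the mutant and -1.60 ± 0.782 in wild type. The lectin gene AT3G16530 read 9.19, 10.74, 10.66 and 10.55 in the ozone-exposed mutant against 12.10, 11.05 and 12.73 in clean air, and 9.28, 9.97, 10.58 and 12.10 in ozone-exposed wild type against 11.84, 12.75, 10.50 and 11.88 in clean air. All ozone arrays of the mutant were below its clean-air arrays.

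AT4G17240 had the lowest change at 2 d in the mutant. It stood at 1.81, 1.96, 5.13 and 2.14 in the ozone-exposed mutant against 6.69, 5.20 and 7.95 in clean air. In wild type it stood at 4.34, 1.54, 1.77 and 5.38 in ozone against 5.39, 6.66, 5.86 and 7.37 in clean air. The groups did not overlap in either genotype, although 5.13 in the mutant and 5.38 in wild type lay just under the lowest clean-air arrays. Its change was -3.86 ± 1.01 in the mutant and -3.07 ± 0.934 in wild type. AT3G63240, of the inositol polyphosphate phosphatase family that breaks down a lipid-derived signal, had -1.39 ± 0.894 in the mutant and -1.38 ± 0.828 in wild type. The probe set called lower in wild type was 264153_at, at 6.09, 5.29, 6.14 and 9.49 in ozone against 7.40, 9.65, 10.36 and 10.15 in clean air, and it has no gene name here.

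Other genes with large early changes had like levels in both airs at 2 d. AT1G52200 had 9.10, 11.10, 11.12 and 11.17 in the ozone-exposed mutant against 10.70, 10.76 and 11.88 in clean air, and 9.74, 11.04, 11.71 and 12.36 in ozone-exposed wild type against 10.59, 11.40, 10.37 and 11.33 in clean air. AT1G22890 had 7.07, 8.18, 8.90 and 8.74 in the ozone-exposed mutant against 8.75, 8.45 and 8.93 in clean air, and 8.22, 8.14, 9.85 and 9.82 in ozone-exposed wild type against 9.15, 9.52, 9.04 and 8.47 in clean air. In both genes the airs overlapped in both genotypes. ACA.l had 10.21, 10.27, 10.59 and 10.22 in the ozone-exposed mutant against 10.67, 10.71 and 10.75 in clean air, and 9.78, 10.20, 10.53 and 10.57 in ozone-exposed wild type against 10.20, 10.54, 10.82 and 10.07 in clean air. Its ozone arrays were all below its clean-air arrays in the mutant, by a change of -0.39 ± 0.226, and overlapped in wild type.

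The loss of the difference between the airs came with a shift of both levels between the times. In clean air the members stood higher at 2 d than at 3 h, by a median of 0.96 in the mutant and 0.97 in wild type, while the medians over all probe sets were -0.06 and -0.10. This held for 253 of the 268 members in the mutant (94.4%) and 248 in wild type (92.5%), and for 242 in both. Among probe sets with a highest group mean of 6 or more, it held for 46.0% in the mutant and 46.1% in wild type. The members' median was between 8.09 and 9.02 on the clean-air arrays of 2 d, against 7.43 to 7.84 on those of 3 h, with no overlap. In ozone the members stood lower at 2 d than at 3 h, by a median of -0.76 in the mutant and -0.67 in wild type, beside -0.08 and -0.20 over all probe sets. This held for 223 members in the mutant, or 83.2%, beside 56.2% of all probe sets, and for 228 in wild type, or 85.1%, beside 62.3%. The ozone level at 2 d was above the clean-air level of 3 h for 228 members in both genotypes. The rule favours a low clean-air level at 3 h. The share of all probe sets is not given for this count or for the 242, so nothing is read from them.

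Clean-air arrays of 2 d were all above those of 3 h for 128 members in the mutant, or 47.8%, beside 9.18% of all probe sets, and for 127 in wild type, or 47.4%, beside 10.8%. Ozone arrays of 2 d were all below those of 3 h for 82 members in the mutant, or 30.6%, beside 12.1% of all probe sets, and for 79 in wild type, or 29.5%, beside 15.2%. The rule favours a low clean-air level and a high ozone level at 3 h, and the reverse at 2 d. Both counts, and the shifts in level above, are therefore descriptions without a test. For the 670 probe sets that met the conditions at 3 h and on level, with none at 2 d, the clean-air shift had a median of 0.57 in the mutant and 0.42 in wild type. For 144 probe sets that were higher in ozone at both times it was -0.36 in the mutant and -0.52 in wild type. The time of day of sampling is not in the labels, and its part in the shift was not tested.

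Single genes show the pattern. AT1G52200 in clean air was at 10.70, 10.76 and 11.88 in the mutant at 2 d, against 8.22, 9.09 and 7.65 at 3 h, and ACA.l was at 10.67, 10.71 and 10.75 at 2 d, against 9.04, 9.22 and 8.99 at 3 h. In wild type in clean air ACA.l was at 10.20, 10.54, 10.82 and 10.07 at 2 d, against 8.82, 8.92 and 8.62 at 3 h. In each of these the 2 d arrays lay above the 3 h arrays. AT4G37290, the peptide precursor, did not follow it. Its clean-air level was 4.57, 5.29 and 3.83 in the mutant at 2 d, against 5.93, 6.46 and 3.63 at 3 h, and its ozone level was 5.55, 3.92, 7.50 and 2.61 at 2 d, against 8.33, 9.12 and 8.30 at 3 h.

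**Figure D5:**
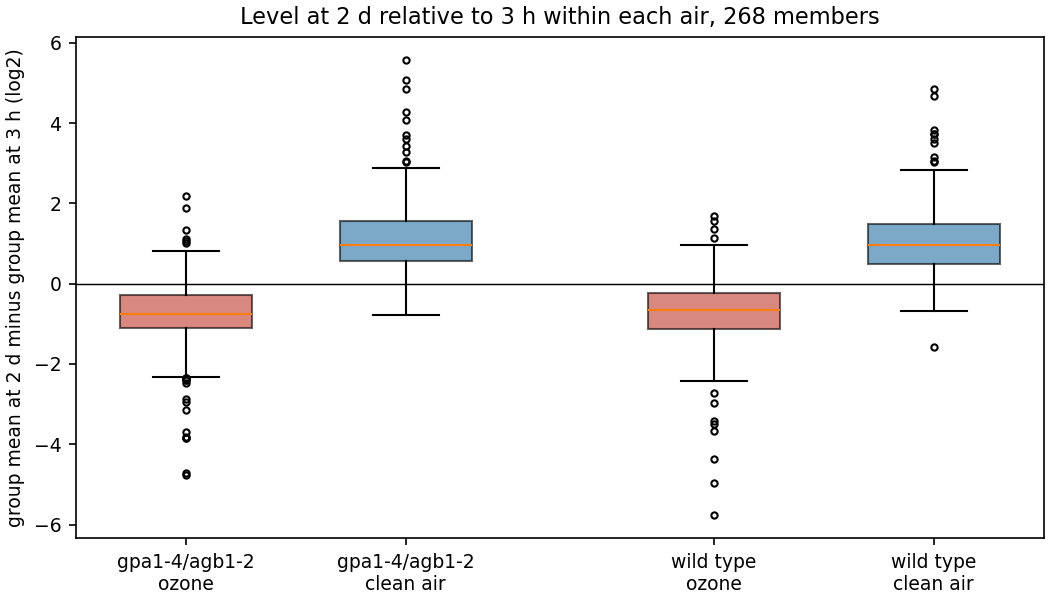
Group mean at 2 d minus group mean at 3 h on the log2 scale for the 268 members, in ozone (red) and clean air (blue) in gpa1-4/agb1-2 and wild type. Boxes span the quartiles around the median, whiskers reach 1.5 times the box and points lie beyond. The medians are -0.76 in ozone and 0.96 in clean air in the mutant, and -0.67 in ozone and 0.97 in clean air in wild type.

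Replicates of a group differed for the members together. Mutant ozone replicate 2 at 3 h was the highest array of its group for 218 members, or 81.3%, while it was the highest for 35.5% of probe sets with a highest group mean of 6 or more. Wild-type ozone replicate 3 at 3 h was the lowest of its group for 203 members, or 75.7%, beside 37.3%. At 2 d wild-type ozone replicate 4 was the highest of its group for 60.4% of the members, beside 28.5%, and mutant clean-air replicate 3 for 62.3%, beside 32.6%. Wild-type clean-air replicate 1 at 2 d was the lowest of its group for 48.9% of the members, beside 18.5%. An ozone array that is high at 3 h raises the group mean that the rule used, so the shares at 3 h are a description. Without mutant ozone replicate 2 the rule found 197 probe sets, and without wild-type ozone replicate 3 it found 301.

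The named members were spread over the genome. Of the 126 genes, 24.6% lay on chromosome 1, 15.1% on 2, 22.2% on 3, 18.3% on 4 and 19.8% on 5, beside 25.7%, 16.3%, 20.5%, 14.5% and 22.4% of the named genes on the array. Adjacent genes were both members in 3 cases, AT3G04210 with AT3G04220, AT3G50900 with AT3G50910 and AT4G38540 with AT4G38550. The gene span in assembly TAIR10.1 had a median of 2327.5 bases, beside 2103 bases over the 13334 named genes and 1686 bases over the 69 genes higher at both times. A single annotated transcript was listed for 50% of the member genes, 54.2% of all named genes and 65.2% of the genes higher at both times.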

How the data were processed

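The deposited table holds 1 linear intensity per probe set and array. The submitters' processing notes list RMA and Affymetrix Expression Console without versions. RMA usually gives log2 values, and the background correction, summary and scaling behind the deposited intensity values are not given in the sources used here. Array medians lay between 153.5 and 182 and trimmed means between 495.9 and 496.8, and replicate arrays correlated at 0.916 to 0.965.

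The analysis used log2(intensity + 1) without renormalizing or filtering. The change of a dim probe set depends on the added constant. For 247573_at in the mutant at 3 h it was 5.31 with 1 and 3.43 with 16. One model of 8 group means on 27 arrays was fitted in R 4.3.3 using limma 3.58.1, empirical Bayes moderation and Benjamini-Hochberg adjustment within each contrast over all 22746 probe sets. P-values were 2-sided. The genotype test at 3 h was tested on simulated data. The number of arrays limits the precision. For the genotype test each group mean was weighted by its share of the genotype's arrays at that time. A group of arrays was called apart where no value of one lay within the range of the other.

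The members, gene lists and tests were chosen with earlier results of these data known. Named genes were the 10 with the largest mean change at 3 h, members of the symbol lists, members past the genotype tests, those nearest the thresholds and unnamed probe sets among the 5 largest changes. Probe sets were named by the platform annotation and the TAIR10.1 gene table. Alternatives were a pseudocount of 16, quantile normalization, array centring, a filter on dim probe sets, array weights, separate fits per time, a replicate block and leaving out each array. Replicate numbers were checked by correlating same-numbered arrays' deviations from their group means. For ozone and clean air at 3 h, r was 0.18 to 0.33 in the mutant and -0.13 to 0.24 in wild type. At 2 d it was -0.10 to -0.08 in the mutant and 0.09 to 0.47 in wild type. Between the ozone-exposed genotypes it was 0.20 to 0.31 at 2 d and -0.11 to 0.38 at 3 h. Between the genotypes in clean air it was -0.19 to 0.39 at 2 d and -0.13 to 0.09 at 3 h. The genotype tests were not taken as paired. The main fit held no pairing in any group, so the changes, errors and calls given for the mutant at 3 h leave it out. A replicate block was fitted only as an alternative, over all groups. Sequences were not used here, and the planned description of promoter motifs was not run.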

Additional observations from a re-analysis of the deposited data

Results flagged for a closer look

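In groups of 4 arrays, a single array stood far from the other 3, by Dixon's criterion at 95%, in 6 of 57 tests. The tests covered the named members and the members' median. They shared the same arrays and were not independent, so the 6 cannot be set against a chance rate of 1 in 20. In the ozone-exposed mutant at 2 d, replicate 1 was low for AT1G52200, at 9.10 with the others between 11.10 and 11.17, and for AT3G16530, at 9.19 with the others between 10.55 and 10.74. In the same group replicate 3 was high for ACA.l, at 10.59 with the others between 10.21 and 10.27. In wild type in clean air at 2 d, replicate 2 was high for AT3G54150, at 9.54 with the others between 7.45 and 7.77, and for 261450_s_at, at 8.29 with the others between 5.18 and 5.62. In that group replicate 1 was high for CXE20, at 6.27 with the others between 4.48 and 4.67. No cause was tested.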

How the results depend on the processing

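The number of members stayed between 250 and 296 under the other scalings, filters and fits, and between 197 and 301 when single arrays were left out. The count of members called higher in ozone at 3 h in the mutant, 46, was 86 with dim probe sets filtered out, 169 with array weights and 27 with separate fits per time. In wild type, 109, it was 232 with array weights and 64 with separate fits. With a replicate block within each time the counts were 135 in the mutant and 178 in wild type. Over all groups, deviations of arrays with the same number correlated at a median of 0.107 at 3 h and 0.139 at 2 d, against -0.098 and -0.059 for arrays of different numbers, and 7 of 12 arrays at 3 h and 8 of 15 at 2 d correlated best with their own number. The block changed no genotype call. Leaving out single arrays gave 3 to 72 calls in the mutant and 23 to 174 in wild type. The genotype tests called 0 members under every alternative run at 2 d and, at 3 h, 5 with array weights and 0 otherwise, and leaving out single arrays gave 0 to 0. The causes of these shifts in the counts were not tested. The share of all probe sets called under each alternative is not given here, so the members cannot be set against the whole array. Median changes when single arrays were left out lay between 1.21 and 1.62 in the mutant and 1.45 and 1.83 in wild type at 3 h, between -0.31 and 0.04 and between -0.10 and 0.17 at 2 d, and between -0.39 and 0.08 for the difference between the genotypes. No member's change at 3 h changed sign. For single members, 13 alternatives were checked per genotype, and arrays were left out only from that genotype's groups at 3 h. Calls held under all of these for 3 members in the mutant, all unnamed. They held for 16 in wild type, ACA.l, AT1G02360, AT1G22890 and AT1G61360 among them. At 3 h 60 members had a clean-air mean below 6 in each genotype.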
